A study of Mus musculus with 6 samples.

Results

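The simple epithelial keratins are the 5 keratin genes *Krt8*, *Krt18*, *Krt19*, *Krt20* and *Krt23*, chosen as the rows of the count table whose gene identifiers map to these symbols. All 5 were found among the 20409 features of the table, and all 5 passed the filter on low counts that left 13346 features for testing. Villus epithelium of the duodenum was compared between 3 double mutant and 3 wild-type mice by bulk RNA sequencing of polyadenylated RNA, with 1 library per mouse and 2 females and 1 male (replicate 1) in each group. The double mutant mice carried *Smad4* fl/fl, *Ctnnb* exon3 fl/wt and the Villin-CreERT2 transgene on a C57BL6-enriched background. Injecting tamoxifen at 0.05 g/kg on 4 consecutive days excised the floxed parts of *Smad4* (loss of function) and exon 3 of β-catenin (gain of function), and villi were taken at 7 days. The Villin promoter drives Cre throughout the intestinal epithelium, in crypts as in villi. The wild-type mice were littermates that received no injection, so that genotype and tamoxifen cannot be told apart in this comparison. Whether these littermates carried floxed alleles or the transgene is not given in the sources used here. The study states that ages were matched between the groups but gives none for these mice.

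Keratins are the intermediate filament proteins of epithelial cells. A filament is built from pairs of a type I and a type II keratin, so neither type forms filaments alone. *Krt8* encodes a type II keratin of simple epithelia such as the lining of the intestine, and *Krt18*, *Krt19*, *Krt20* and *Krt23* encode type I keratins that can pair with it. Keratin 20 is known as a protein of differentiated intestinal cells, most abundant on the villus, and keratin 19, the smallest keratin and one without a tail domain, is found in crypts as well as villi. The filaments are anchored to desmosomes at cell contacts, and plakins link them to other structures of the cell.

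In double mutant villi *Krt19* was 2.92-fold higher and *Krt20* was 1.97-fold lower than in wild-type villi, and both changes passed the test. The differences of *Krt8*, *Krt18* and *Krt23* did not pass it. The level of *Krt19* relative to *Krt20*, per length, went from 0.185 ± 0.025 to 1.06 ± 0.11 (SD, n = 3), while the 5 keratins summed differed far less between the groups. This ratio joins the keratin called higher with the one called lower and was not among the planned measures. Its exact permutation p was 0.1, the smallest possible here. With the longest transcript as the length of *Krt19*, it was 0.189 to 0.248 in wild-type and 1.10 to 1.33 in double mutant mice.

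The genes lie in both keratin clusters of the mouse genome (mm9, GENCODE annotation). *Krt8* (ENSMUSG00000049382; chr15:101827142-101834773, minus strand, 9 exons) and *Krt18* (ENSMUSG00000023043; chr15:101858647-101862457, plus strand, 7 exons) are separated by 23.9 kb and point away from each other. *Krt20* (ENSMUSG00000035775; chr11:99289717-99299464, minus strand, 8 exons) lies 39.8 kb from *Krt23* (ENSMUSG00000006777; chr11:99339288-99354451, minus strand, 8 exons). *Krt19* (ENSMUSG00000020911; chr11:100002124-100009979, minus strand, 6 exons in its longest transcript) lies a further 648 kb along chromosome 11, at the far side of the same cluster. No other annotated gene overlaps any of the 5, so they share no reads with an annotated antisense partner. The strand setting of the counting is not given in the sources used here.

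Near-identical copies are a different matter for *Krt8*. A search of the genome with each transcript found a copy of *Krt8* without introns at chr7:24142113-24143830 (plus strand), inside the span of *Nlrp4e*, that matched 96.0% of the transcript at 97.9% identity. The 1734 aligned positions held 36 mismatches and gaps, and 185 of 1585 windows of the read length, 150 bases, (11.7%) were identical in both places, with a median of 2 mismatches and at most 22. The rule for reads with several matches is not given in the sources used here, so the counts of *Krt8* carry this uncertainty in both groups. The best other match was 90.5% identical for *Krt18* and for *Krt19*, over stretches of at least 150 bases, and no other locus met that length for *Krt20* or *Krt23*. To convey how alike they are, 60 coding bases of *Krt8* exon 6 (chr15:101828888-101828947, minus strand) are shown with the copy (chr7:24143017-24143076, plus strand), the 4 differing bases in capitals. No other 60 coding bases inside a single exon that align without a gap differed at more positions.
Krt8: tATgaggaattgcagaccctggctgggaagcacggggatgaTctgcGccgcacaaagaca
copy on chromosome 7: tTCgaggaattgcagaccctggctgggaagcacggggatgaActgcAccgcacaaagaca

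Promoter sequences were at hand for 4 of the 5 genes (RefSeq, GRCm38.p6, 250 bases before to 50 after the start), not for *Krt19*. The 2 most abundant of these genes in wild-type villi are shown, *Krt20* (chr11:99438104-99438403, minus strand) and *Krt8* (chr15:102004293-102004592, minus strand), with matches to the searched motifs in capitals.
Krt20: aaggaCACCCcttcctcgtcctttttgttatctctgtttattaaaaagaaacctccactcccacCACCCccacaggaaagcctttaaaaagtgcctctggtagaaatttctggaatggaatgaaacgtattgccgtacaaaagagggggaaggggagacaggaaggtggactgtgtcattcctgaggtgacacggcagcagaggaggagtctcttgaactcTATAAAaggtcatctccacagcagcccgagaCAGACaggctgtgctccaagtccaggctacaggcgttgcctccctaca
Krt8: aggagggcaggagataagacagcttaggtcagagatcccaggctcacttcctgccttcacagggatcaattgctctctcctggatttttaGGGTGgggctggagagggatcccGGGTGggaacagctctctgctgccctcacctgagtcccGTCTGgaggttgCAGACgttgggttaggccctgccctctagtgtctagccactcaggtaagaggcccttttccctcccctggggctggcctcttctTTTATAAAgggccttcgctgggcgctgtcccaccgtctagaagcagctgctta

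Both strands were searched for short letter strings known from the factors that the mutations act on and from intestinal epithelium. The partners of β-catenin, the TCF/LEF factors, bind strings such as CTTTGAT. Neither this string nor its variant CTTTGTT was in any of the 4 promoters, and the variant ending in A, spelled CTTTGTA, was absent as well, while 12.5% of 32851 mouse promoters of this length held at least 1 of them. The SMAD string CAGAC was in all 4, and it was in 49.6% of all promoters. The *Krt20* promoter held it once, with its first base at position 3 (the start is position 1 and the base before it -1), and the *Krt8* promoter held it on each strand, at -99 and -87. The KLF string CACCC was found in pairs in *Krt8*, *Krt18* and *Krt20*, not in *Krt23* (57.5% of all promoters). The TATA string TATAAA stood at -29 in *Krt20* and, on both strands and overlapping itself, at -3 and -1 in *Krt8* (13.6% of all promoters). The CDX string TTTATG, of the intestinal homeobox factors, was matched in *Krt23* alone among the 4 (11.9% of all promoters), and the AP-1 string TGANTCA in none (7.81%). A match describes letters, not a bound site, and the lack of one says only that the letters are not in this window.

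Libraries held 19678507 to 26337318 counted reads, so 3 counts, the floor used here, corresponded to 0.125 to 0.163 CPM (counts relative to the library size, scaled by TMM factors). This floor covers counting error only, as the reads carry no molecular identifiers. *Smad4* had 120, 180 and 144 CPM in the wild-type mice and 26.1, 36.8 and 32.1 CPM in the double mutant mice (log2 fold change -2.22, SE 0.19, edgeR adjusted p = 0.000145), as the labels state. *Ctnnb1* did not pass the test (adjusted p = 0.359), with a log2 fold change of -0.15 that became 0.046 with libraries scaled by size alone, and gene counts do not resolve its exon 3. The 7 epithelial markers summed to between 9754 and 10001 CPM in wild-type and between 8043 and 9336 CPM in double mutant villi. Of these 7, 1 was higher and 2 lower at an adjusted p under 0.05, against 19.7% and 17.0% of all tested genes. The other 4, with *Epcam* and *Cdh1* among them, did not pass the test. *Vil1* was lower, at 4047 ± 296 against 2243 ± 148 CPM (SD, n = 3, log2 fold change -0.85, edgeR adjusted p = 0.0012). Of 10 mesenchymal markers 7 were among the counted features, with *Col1a2*, *Col3a1* and *Pdgfra* at no more than 3 counts in every mouse. These 7 summed to 4.98 CPM in double mutant replicate 1 and to at most 0.928 CPM in every other library. Wild-type replicate 1, the only male of its group, stood apart, with 125 CPM on the 8 goblet cell markers against 11616 and 11039 in the other wild-type mice and 4669 to 5064 in the double mutant mice. Its Paneth cell markers were also low, at 7.96 CPM against at least 390 in every other library. The male of the double mutant group, replicate 1, had 5064 CPM on the goblet and 390 CPM on the Paneth cell markers. Sex and other properties of wild-type replicate 1 cannot be told apart within its group, and the part of sex was not tested. Values without this mouse are therefore given for the keratin genes and, where named below, for ratios and lists. *Smad4* was at -2.36 (edgeR adjusted p = 1.14e-05) without it.

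*Krt19* had 433, 561 and 510 CPM in wild-type replicates 1 to 3 and 1339, 1670 and 1382 CPM in double mutant replicates 1 to 3. Every double mutant mouse was above every wild-type mouse. The mean went from 501 ± 64.8 to 1464 ± 180 CPM (SD, n = 3). This was a log2 fold change of 1.55 (SE 0.15, 95% interval 1.21 to 1.88, adjusted p = 0.000231, edgeR quasi-likelihood test with Benjamini-Hochberg adjustment). Of all tested genes, 6.32% had a larger log2 fold change. Without wild-type replicate 1 the value was 1.45 (adjusted p = 9.24e-05), and across the 8 other settings that kept all mice it ran from 1.52 to 1.74.

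*Krt20* moved the other way. It had 2804, 2768 and 2902 CPM in the wild-type mice and 1244, 1531 and 1536 CPM in the double mutant mice, again without overlap. The wild-type mice lay close together, and double mutant replicate 1 was the lowest of the 6. The log2 fold change was -0.97 (SE 0.13, 95% interval -1.26 to -0.69, adjusted p = 0.000806 by the same test), and 8.27% of the tested genes had a lower one. Without wild-type replicate 1 it was -0.98 (adjusted p = 0.000536). In these bulk libraries, fewer cells of a type and less RNA per cell cannot be told apart, for *Krt20* as for every gene below.

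*Krt8*, the type II partner of the others, had 3122, 3161 and 3253 CPM in the wild-type mice and 2393, 2793 and 2667 CPM in the double mutant mice. The groups did not overlap, yet the difference did not pass the test. Its log2 fold change was -0.28 (SE 0.12, 95% interval -0.54 to -0.017, adjusted p = 0.0895, unadjusted p = 0.0395), so a reduction of up to 0.54 on the log2 scale lies within the interval. The adjusted p ran from 0.0503 (DESeq2) to 0.567 (library size alone) over the settings that kept all mice, all of them on the same side of the threshold, and it was 0.0959 without wild-type replicate 1 (log2 fold change -0.29).

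*Krt18*, the usual partner of *Krt8* in simple epithelia such as the liver, had 114, 127 and 182 CPM in the wild-type mice and 122, 163 and 152 CPM in the double mutant mice. The ranges overlapped, and wild-type replicate 3 was the highest of all. The log2 fold change was 0.045 (SE 0.19, 95% interval -0.39 to 0.48, adjusted p = 0.874), and it turned to -0.088 without wild-type replicate 1.

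*Krt23*, a little-studied type I keratin, was the rarest of the 5, at 5.87, 8.76 and 12.9 CPM in the wild-type mice and 8.78, 6.73 and 7.88 CPM in the double mutant mice. The double mutant values all lay inside the wild-type range. Its log2 fold change was -0.23 (SE 0.28, 95% interval -0.87 to 0.41, adjusted p = 0.551), and it turned to 0.09 without wild-type replicate 3. It rested on 141 to 255 counts per mouse, and without wild-type replicate 1 the value was -0.47 (adjusted p = 0.113).

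Of the 5 keratins, 1 was higher and 1 lower at an adjusted p under 0.05, where 36.8% of all tested genes were called (19.7% higher and 17.0% lower). That is 2632 higher and 2273 lower genes, which became 3732 and 1425 with libraries scaled by size alone. The groups did not overlap for 3 of the 5, against 52.4% of all tested genes. These shares are near the background and are no result about the family. None of the 5 reached an absolute log2 fold change of 2, as 5.30% of the tested genes did. The calls for *Krt19* and *Krt20* were kept under all 8 other settings and with each mouse left out in turn.

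**Figure D1:**
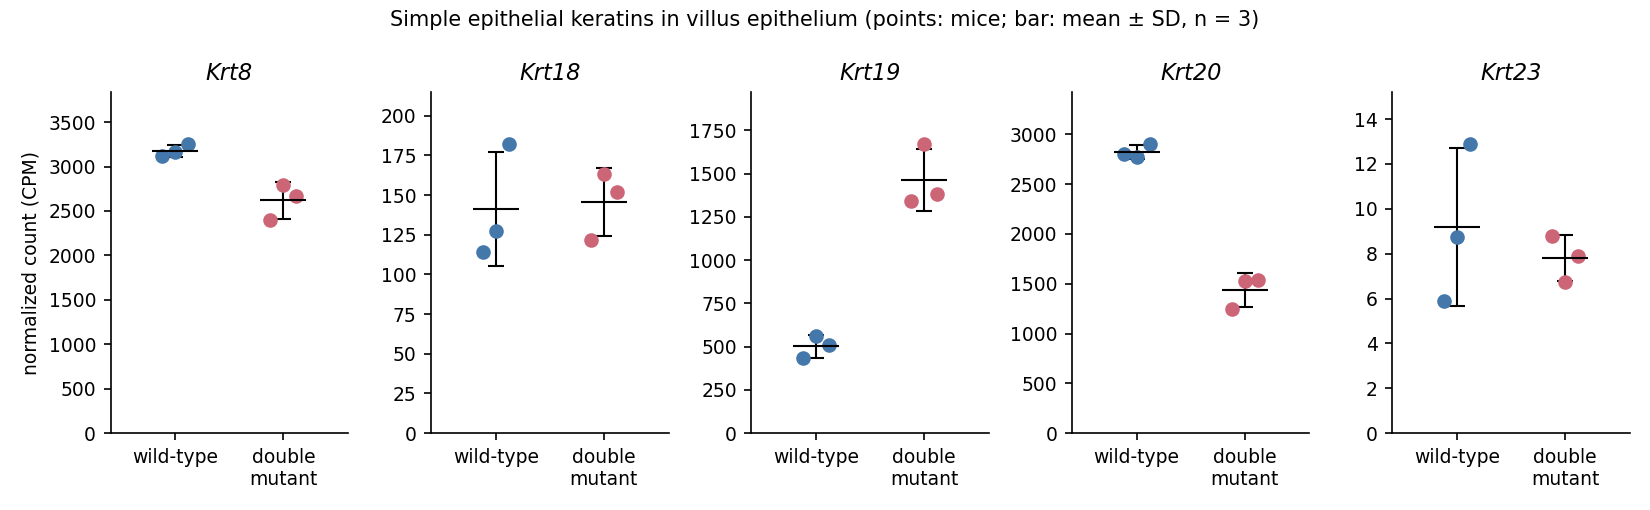
Normalized counts (CPM, linear axes from 0, a different scale in each panel) of the 5 simple epithelial keratins in 3 wild-type (blue) and 3 double mutant (red) mice, with 1 point per mouse and the mean ± SD as black bars. The groups are separate for *Krt19* (433 to 561 against 1339 to 1670), *Krt20* (2768 to 2902 against 1244 to 1536) and *Krt8*, and overlap for *Krt18* and *Krt23*.

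To compare levels between genes, counts were divided by the summed exon length of each gene (CPM per kb). In wild-type villi the order was *Krt8* (1761 ± 37.3), *Krt20* (1466 ± 35.9), *Krt19* (270 ± 34.9), *Krt18* (101 ± 25.8) and *Krt23* (5.86 ± 2.25 CPM per kb, SD, n = 3). No neighbours in this order overlapped. *Krt8* ranked between 27 and 30 among 20032 annotated genes and *Krt20* between 34 and 38, whereas *Krt19* ranked between 181 and 277. Transcripts of *Krt8* and *Krt20* were thus among the most abundant of the villus epithelium.

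In double mutant villi *Krt8* stayed first at 1450 ± 113 CPM per kb (rank 27 or 28). It was followed by *Krt19* at 789 ± 97.1 and *Krt20* at 746 ± 86.8, whose ranges overlapped (722 to 900 and 646 to 797), so these neighbours did not differ beyond their spread. This depends on the length taken for *Krt19*. With its longest transcript (1576 bases) in place of all its exons (1855 bases), a choice added after the data were seen, *Krt19* had 850 to 1060 CPM per kb and lay above *Krt20* in each double mutant mouse without overlap. *Krt18* (104 ± 15.3) and *Krt23* (4.98 ± 0.66) kept the last places. *Krt19* ranked between 58 and 65 of all genes and *Krt20* between 62 and 66.

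As a share of the summed level of the 5 keratins, *Krt8* made up 48.9% in the wild-type mice and 46.9% in the double mutant mice. *Krt20* went from 40.7% to 24.1%, and *Krt19* from 7.49% to 25.5%. The share of *Krt18* was 2.79% and 3.35%, and that of *Krt23* was 0.161% and 0.163%. Taken as a pair, *Krt19* and *Krt20* gave 1736 ± 46.3 CPM per kb in wild-type and 1535 ± 164 CPM per kb in double mutant villi, that is 48.2% and 49.6% of the summed level. This pair joins the keratin called higher with the one called lower and was not among the planned measures.

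**Figure D2:**
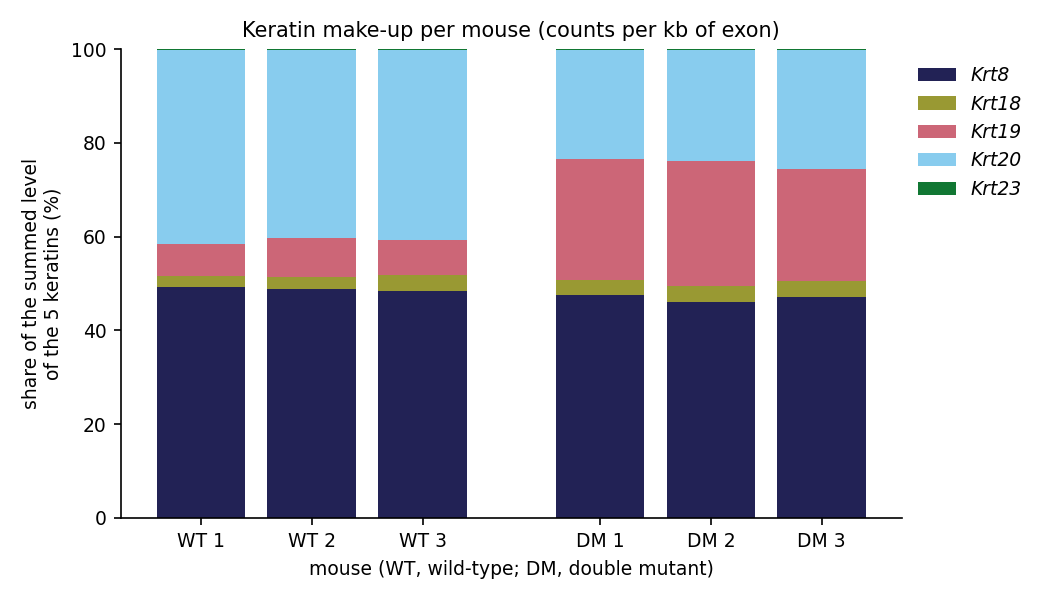
Share (%) of each simple epithelial keratin in the summed level of the 5, in CPM per kb of exon, with 1 stacked bar per mouse (WT, wild-type; DM, double mutant). *Krt19* takes 6.66 to 8.44% in the wild-type mice and 23.8 to 26.8% in the double mutant mice, *Krt20* goes from at least 40.0% to at most 25.4%, and *Krt8* stays between 46.0 and 49.4%.

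Whether the type I keratins changed alike was asked with ratios inside each mouse, which do not depend on how libraries are scaled. The ratio of *Krt19* to *Krt8*, per length, was 0.135, 0.173 and 0.153 in the wild-type mice and 0.544, 0.582 and 0.504 in the double mutant mice, 3.56-fold higher on average. The ratio of *Krt20* to *Krt8* was 0.841, 0.82 and 0.836 against 0.487, 0.514 and 0.54, which is 1.62-fold lower. Neither ratio overlapped between the groups. For both, the exact two-sided permutation test gave p = 0.1, the smallest that 3 mice against 3 allow (0.2 after adjustment over the 4 ratios), so this design could not reach 0.05. Without wild-type replicate 1 the log2 differences of these ratios were 1.74 and -0.69, against 1.83 and -0.70 with it.

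The ratio of *Krt18* to *Krt8* was 0.0571 ± 0.0133 and 0.0715 ± 0.00517 (exact permutation p = 0.2, adjusted p = 0.267), with overlapping groups. That of *Krt23* to *Krt8* was 0.00331 ± 0.0012 and 0.00347 ± 0.00073 (exact permutation p = 0.9). The summed type I keratins among the 5, over *Krt8*, gave 1.03, 1.05 and 1.06 in the wild-type mice and 1.10, 1.17 and 1.12 in the double mutant mice. These groups did not overlap, and the exact permutation test gave p = 0.1, the smallest it can give here. How near 1 this ratio lies depends on the exon lengths taken. The log2 difference of this ratio was 0.11, and 0.19 when the longest transcript stood for the length of each gene, which shortens *Krt19* from 1855 to 1576 bases. The summed level of the 5 was 3604 ± 110 and 3094 ± 291 CPM per kb, a log2 difference of -0.22 (exact permutation p = 0.1), and of -0.24 without wild-type replicate 1 (exact permutation p = 0.2). That sum was -0.031 on the log2 scale when libraries were scaled by size alone, a scaling that shifts the median of all tested genes by 0.19. In raw counts the 5 genes took 0.591 to 0.658% of each wild-type and 0.553 to 0.652% of each double mutant library.

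**Figure D3:**
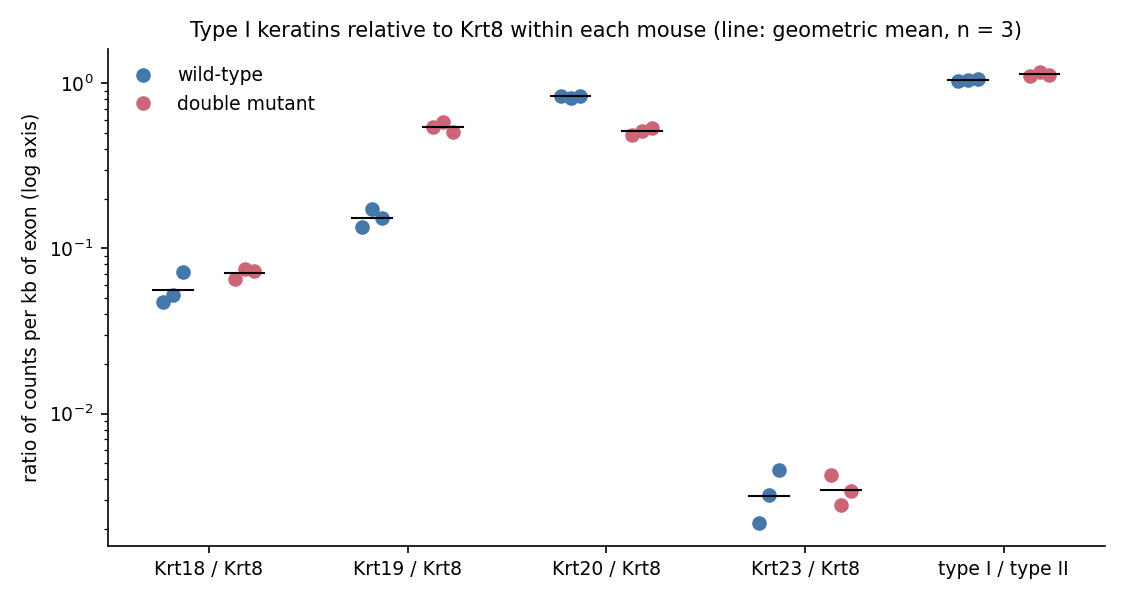
Ratios of CPM per kb of exon within each mouse on a log axis, for each type I simple epithelial keratin over *Krt8* and for the sum of these type I keratins over *Krt8*, their type II partner (blue, wild-type; red, double mutant; black line, geometric mean of 3 mice). *Krt19* over *Krt8* lies at 0.135 to 0.173 in the wild-type and 0.504 to 0.582 in the double mutant mice. The summed ratio lies at 1.03 to 1.06 in the wild-type and 1.10 to 1.17 in the double mutant mice.

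The annotation lists 51 keratin genes in all, of which 20 were in the table, 15 of them besides the simple epithelial 5. Of these 15, 10 were not tested and had at most 10 counts in any mouse. *Krt7*, a type II keratin of simple ducts and glands, had the highest counts of the 5 that were tested, with 13.8, 32.0 and 31.5 CPM in the wild-type mice and 45.8, 67.1 and 65.7 CPM in the double mutant mice. It was higher in double mutant villi (log2 fold change 1.21, SE 0.33, edgeR adjusted p = 0.0255), with no overlap between the groups. Wild-type replicate 1 was its lowest value, and without that mouse the log2 fold change was 0.91 (adjusted p = 0.00358). The call was lost without double mutant replicate 2 (adjusted p = 0.0951) or replicate 3 (adjusted p = 0.0727), and with no filter on low counts (adjusted p = 0.0727).

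*Krt12* (log2 fold change -1.55, adjusted p = 0.034), known from the cornea, and *Krt222* (log2 fold change -1.25, adjusted p = 0.034), a keratin-like gene, were lower at 7 to 58 counts per mouse. Each lost its call with libraries scaled by size alone (adjusted p = 0.0544 and 0.0601), without wild-type replicate 1 (0.0734 and 0.0691) and without any one of 4 further mice, which include all 3 double mutant mice, with adjusted p up to 0.119 and 0.117. *Krt12* and *Krt10* each overlap an annotated gene on the other strand. *Krt10* (log2 fold change 0.13, adjusted p = 0.799) and *Krt15* (0.45, adjusted p = 0.481), keratins of stratified epithelia, had low counts, 7 to 29 per mouse, at 0.354 to 1.38 CPM. Without wild-type replicate 1 their log2 fold changes were 0.076 and 0.59. Markers of stratified epithelium summed to 1.72 to 2.12 CPM in wild-type and 1.97 to 2.61 CPM in double mutant villi, with *Krt4*, *Trp63* and *Lor* at no more than 3 counts in every mouse.

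**Figure D4:**
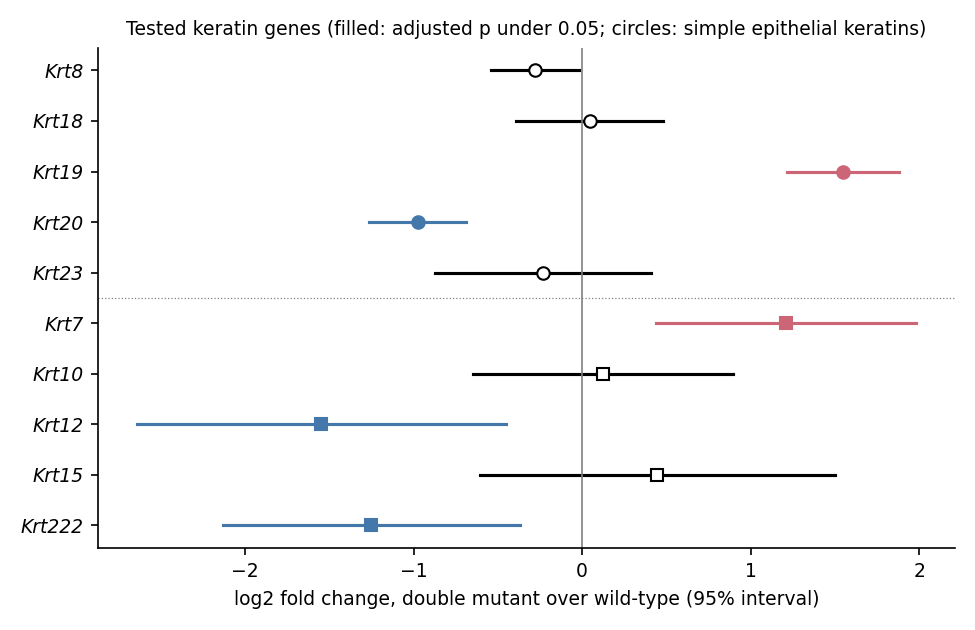
Log2 fold change of double mutant over wild-type villi with its 95% interval (edgeR, 3 mice per group) for the 5 simple epithelial keratins (circles, above the dotted line) and the 5 other keratin genes tested (squares). Filled symbols have an adjusted p under 0.05 and are red where higher and blue where lower, with *Krt19* at 1.55 and *Krt20* at -0.97 having the narrow intervals and *Krt12* (-1.55) and *Krt222* (-1.25) wide ones.

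Genes of the structures that hold keratin filaments were described from fixed lists. The median log2 fold change of all tested genes was 0.021, and 36.8% of them were called, 19.7% as higher and 17.0% as lower. The counts below are to be read against these shares, and the lists were not tested as sets. Of 9 tested desmosome genes, 1 was higher, 2 were lower and 6 did not pass the test, with a median of -0.004. *Pkp2*, a plakophilin that ties keratin filaments into the desmosome, had 39.9, 44.6 and 47.1 CPM in the wild-type and 74.7, 69.2 and 63.6 CPM in the double mutant mice (log2 fold change 0.66, SE 0.12, edgeR adjusted p = 0.00347). *Pkp4*, a relative found at several kinds of junction, had 132, 136 and 116 CPM against 91.3, 87.7 and 89.0 CPM (log2 fold change -0.52, SE 0.11, adjusted p = 0.00598). The groups were separate for both genes. *Dsp*, desmoplakin, which carries the attachment itself, was chosen after its values were seen, and had 430 ± 42.6 and 498 ± 66.6 CPM (log2 fold change 0.21, adjusted p = 0.253).

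Of 8 tested genes of plakins and hemidesmosomes, 5 were lower (17.0% of all tested genes), 1 was higher (19.7%) and 2 did not pass the test, with a median of -0.37. *Evpl*, the plakin envoplakin, had 127, 110 and 91.7 CPM in the wild-type and 29.3, 49.3 and 48.4 CPM in the double mutant mice (log2 fold change -1.37, SE 0.21, adjusted p = 0.00203). *Plec*, plectin, which crosslinks keratin filaments to one another and to hemidesmosomes, was also chosen after its values were seen, and fell from 967 ± 159 to 462 ± 56.6 CPM (log2 fold change -1.07, SE 0.15, edgeR adjusted p = 0.00132). *Ppl*, periplakin, a partner of envoplakin, was higher at 3.79 to 9.21 against 11.2 to 15.2 CPM (log2 fold change 0.94, adjusted p = 0.0445), a call lost with sex as a covariate (adjusted p = 0.0564) and without any one of 5 mice. With libraries scaled by size alone, the lower genes numbered 1 in the desmosome list and 3 in this one. Under that scaling 1425 of all tested genes were lower, against 2273.

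Of 16 tested genes whose proteins bind or modify keratins, 3 were higher, 4 were lower and 9 did not pass the test, with a median of -0.15. With libraries scaled by size alone, 1 was lower. *Ywhag*, one of the 14-3-3 proteins that bind phosphorylated keratin 18, had 35.4, 43.7 and 34.3 CPM in the wild-type and 69.9, 70.1 and 59.2 CPM in the double mutant mice (log2 fold change 0.81, SE 0.14, adjusted p = 0.0025). *Prkce*, a protein kinase C that phosphorylates keratins, had 42.4, 44.8 and 36.9 against 21.5, 16.5 and 18.7 CPM (log2 fold change -1.13, SE 0.14, adjusted p = 0.000702). Both were separate between the groups. Of 7 tested genes of other intermediate filaments, 1 was higher and 6 did not pass, with a median of 0.57. That one was *Lmnb1*, a lamin of the nuclear envelope, at 6.04, 9.36 and 10.5 against 17.8, 23.5 and 18.8 CPM (log2 fold change 1.22, SE 0.23, adjusted p = 0.00392). *Vim*, the intermediate filament of mesenchymal cells, had 2.17 ± 0.67 and 3.22 ± 0.49 CPM and did not pass the test (adjusted p = 0.2), chosen after its values were seen. Without wild-type replicate 1, the called genes named by rule in these 4 lists kept their direction and their call, with 1 higher and 3 lower desmosome genes, 1 higher and 5 lower plakin and hemidesmosome genes, 4 higher and 4 lower keratin-binding genes and 1 higher other intermediate filament gene. Of all tested genes, 2783 were then higher and 2361 lower, against 2632 and 2273 with all mice.

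**Figure D5:**
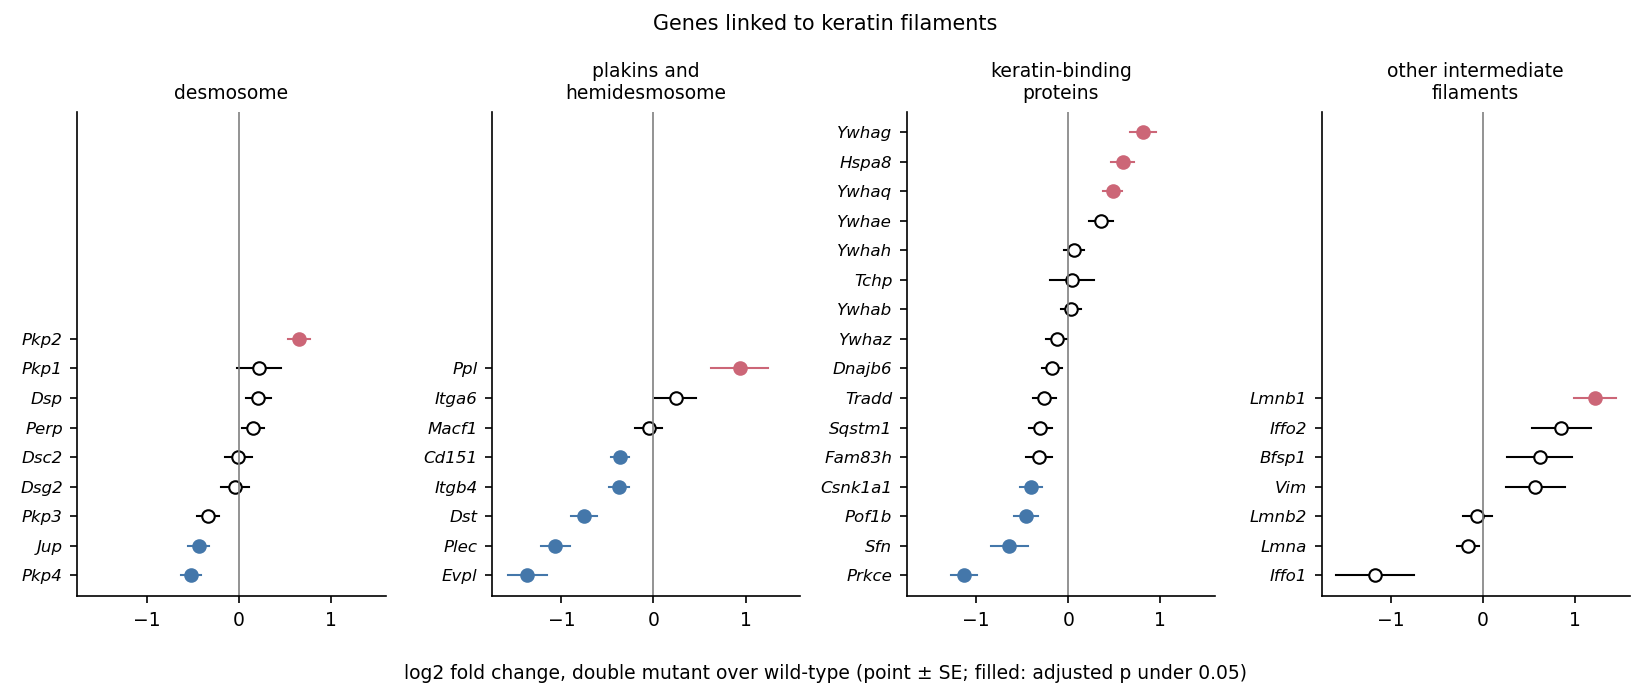
Log2 fold change of double mutant over wild-type villi (point ± SE, edgeR, 3 mice per group) of each tested gene in 4 lists linked to keratin filaments, sorted within each list, with filled points at an adjusted p under 0.05 (red higher, blue lower). In the list of plakins and hemidesmosomes 5 of 8 genes are lower, down to *Evpl* at -1.37, and in the desmosome list 6 of 9 are open points.

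Markers of other states and cell types differed in the same libraries. Of all tested genes 17.0% were lower and 19.7% higher. Of 20 enterocyte markers 14 were lower and 1 higher, and they summed to 72837 to 87736 CPM in wild-type and 46181 to 47928 CPM in double mutant villi. Of 10 crypt and stem cell markers 6 were higher and 4 did not pass the test, and they summed to 104 to 229 against 478 to 610 CPM. Of 10 tuft cell markers 9 were lower (170 to 244 against 21.6 to 22.6 CPM), and of 10 enteroendocrine markers 7 were lower and 1 higher (244 to 370 against 109 to 120 CPM). Immune markers summed to 82.1 to 162 against 71.1 to 109 CPM, endothelial markers to 3.08 to 5.93 against 6.55 to 7.37 CPM, and exocrine pancreas markers to 5.82 to 6.37 against 7.18 to 10.4 CPM. The part of these markers' cells in the keratin values was not tested.

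For each keratin, the genes most alike in pattern were taken as those with the smallest distance between centred log2 CPM values over the 6 mice, among 4808 other genes with a mean log2 CPM of at least 5. *Krt19* was closest to a numbered transcript outside the annotation (distance 0.17, log2 fold change 1.67), *Ctsh* (0.25, log2 fold change 1.43) and *Rpsa*, a ribosomal protein gene with many pseudogene copies (0.27, log2 fold change 1.58). *Krt20* was closest to *Myo15b* (0.16), *Arhgef2* (0.16) and *1810055G02Rik* (0.16), whose log2 fold changes lay between -1.06 and -0.98. *Krt8* had the smallest distances, to *4632419I22Rik* (0.052), *Gnai2* (0.054) and *Mon1a* (0.071). The values were centred but not scaled, so distances cannot be compared between keratins of unlike spread. The Pearson r over the 6 mice was 0.995 for *Krt8* with *4632419I22Rik* and 0.999 for *Krt19* with the numbered transcript. *Krt18* was nearest to *Pla2g16* (0.23), *Gltscr2* (0.24) and *Cdc42se1* (0.28), and *Krt23* to *Myo10* (0.35), *Ankrd54* (0.37) and *Cldn23* (0.40). None of these nearest genes that had a symbol was another keratin, but few keratins reached the minimum level, so this says little about the family. The numbered transcript has no symbol to judge by.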

How the data were processed

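RNA of duodenal villus epithelium from 3 wild-type and 3 double mutant mice was sequenced as 150-base paired reads. The authors aligned the reads to mm9 with HISAT2 2.0.5, counted them per gene with featureCounts 1.5.0-p3 and deposited raw counts, 1 column per mouse, neither normalized nor pooled. Strand setting and treatment of multiply matching reads are not given in the sources used here. RNA with an integrity number above 4 was accepted.

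From these counts, genes passing filterByExpr (13346) were normalized by TMM and compared with edgeR 4.0.16 (glmQLFit with robust estimation and glmQLFTest, R 4.3.3) and Benjamini-Hochberg adjustment over all tested genes, with an adjusted p threshold of 0.05. The study's own tool, DESeq2, served as an alternative. SEs are the log2 fold change over the square root of the F statistic. Levels between genes are CPM per kb of summed exons. Ratios were compared by exact two-sided permutation tests. Symbols and coordinates came from GENCODE for mm9 (20032 of 20073 gene identifiers matched), and copies were searched with BLAST 2.17.0. The scripts were tested on simulated data.

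The simple epithelial keratins, the other lists and the tests were chosen with earlier results of these data known. Named genes are the 5 keratins, *Smad4* and *Ctnnb1*, each other keratin that passed the filter, the called gene with the largest rise and the largest fall in each of the 4 filament-linked lists, and the 3 genes nearest each keratin, besides those said to be chosen after their values were seen and members of marker lists given as examples. Alternatives were DESeq2 1.42.0, limma-voom (limma 3.58.1), RLE factors, library size alone, no filter, a filter of 1 CPM in 3 samples, a replicate block, sex as a covariate and each mouse left out in turn. Same-numbered mice share their sex (replicate 1 is the male) but did not deviate together across genes, so they were treated as unpaired. The length of *Krt19* was also taken from its longest transcript, a choice added after the data were seen. Any 2 replicates of a group differed by more than sampling noise.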

Additional observations from a re-analysis of the deposited data

How the results depend on the processing

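The calls for *Krt19* and *Krt20*, and the counts of 1 higher and 1 lower among the 5 keratins, held under all 8 other settings that kept the 6 mice and with each mouse left out. The sign of *Krt18* (-0.088 to 0.27 with 1 mouse left out, -0.088, -0.026 and -0.047 without wild-type replicate 1, wild-type replicate 2 and double mutant replicate 2), of *Krt23* (-0.47 to 0.090, the latter without wild-type replicate 3) and of the ratio of *Krt23* to *Krt8* (-0.16 to 0.38, with -0.16 without wild-type replicate 1 and -0.041 without double mutant replicate 1) depended on single mice. With library size alone, *Ctnnb1* was at 0.046, 1425 of all tested genes were lower against 2273, no other keratin was lower, 2 desmosome genes were higher and 1 lower, 3 plakin and hemidesmosome genes and 1 keratin-binding gene were lower, and 2 other intermediate filament genes were higher. This scaling moves the median of all genes by 0.19, and the split of calls with it, from 2632 higher and 2273 lower to 3732 higher and 1425 lower. A log2 fold change of at least 2 left 406 genes higher and 302 lower. Without a filter 0 other keratins were higher in edgeR, and with the filter of 1 CPM 1 was lower. With sex as a covariate, 0 plakin and hemidesmosome genes and 2 other intermediate filament genes were higher, and limma-voom called 1 of the latter lower. With 1 mouse left out, other keratins numbered 0 to 1 higher and 0 to 1 lower, desmosome genes 1 to 3 lower, plakin and hemidesmosome genes 0 to 1 higher and 3 to 5 lower, keratin-binding genes 1 to 4 lower and other intermediate filament genes 1 to 2 higher. All tested genes then numbered 1812 to 2783 higher and 1630 to 2361 lower, against 2632 and 2273 with all mice. The causes of these shifts were not tested.

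Same-numbered mice shared a number and their sex, and nothing in the labels ties them further, with correlations of their deviations of 0.022, -0.11 and 0.012. With the replicate block, *Krt19* was at 1.55 (adjusted p = 0.00108) and *Krt20* at -0.98 (adjusted p = 0.00512), *Krt8* at -0.28 (adjusted p = 0.182), 1 other keratin and 1 desmosome gene were lower, 0 plakin and hemidesmosome genes were higher and 3 lower, and 2 keratin-binding genes were lower. Of all tested genes, 2084 were higher and 1750 lower with this block, against 2632 and 2273 without it. The number of mice, 3 per group, the near-identical copy of *Krt8* and the low counts of *Krt12* and *Krt222* limit what these libraries can resolve, and counts say nothing of keratin protein.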
